A study of Mus musculus with 14 samples.

Results

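The class I histone deacetylases of the mouse are encoded by *Hdac1*, *Hdac2*, *Hdac3*, and *Hdac8*, and *Gm10093* is a processed pseudogene of *Hdac1*. These 5 genes were taken by name from the expression files of activated CD4+ T cells and are described here among 46065 genes with a value in at least 1 of 2 experiments. Some libraries listed a gene as an assembled locus with no gene name, and such a locus was used where at least 0.8 of the joint span of locus and gene was shared. Of the 70 values of the 5 genes in 14 libraries, 28 came from named rows and 42 from such loci.

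In the first experiment, 4 WT libraries were compared with 4 HDAC1cKO-HDAC2HET libraries (HDAC1f/f HDAC2f/+ CD4-cre+), from cells cultured for 3 days in nonpolarizing medium with antibodies to CD3 and CD28. In the second experiment, 3 WT libraries were compared with 3 HDAC1cKO libraries (HDAC1f/f CD4-cre+), from cells given 12 hours of anti-CD3 after such a culture. By the labels and the study's methods the mice were young adult C57BL/6 of either sex, and the WT mice were littermates. The study points to an earlier report for the restimulated culture. Its methods on littermates, tissue, and read length may therefore not cover the second experiment. The Cre was driven by *Cd4* regulatory sequences, which are active from the CD4+CD8+ thymocyte stage on, so every T cell that passes this stage can carry the deletions, and not the sorted CD4+ cells alone. Naive CD4+ T cells came from the spleen by the labels, with lymph nodes pooled in by the study's methods, and RNA was taken from sorted viable cells. Expression was given as FPKM, fragments per kilobase of transcript scaled to the mapped fragments of the library. Levels of genes and of libraries are thus on a common scale for length and depth only. No further scaling between libraries was applied in the main fits. Depth estimated from the confidence bounds in the files was 23000000 to 54500000 fragments a library.

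Histone deacetylases remove acetyl groups from lysines of histones and other proteins, which is mostly linked to a less accessible chromatin. HDAC1 and HDAC2 are close paralogs that work in pairs inside the Sin3, NuRD, CoREST, and MiDAC complexes, and each can take over much of the role of the other. HDAC3 is the catalytic subunit of the NCoR/SMRT corepressor complexes, and HDAC8 acts outside these complexes and deacetylates the cohesin subunit SMC3. In T cells HDAC1 and HDAC2 are known for keeping CD8 lineage and cytotoxic genes silent in the CD4 lineage. A processed pseudogene is a copy of a spliced mRNA inserted elsewhere in the genome.

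*Hdac1* lies on chromosome 4 (mm10, chr4:129516104-129542713, minus strand, 14 exons) and *Gm10093* on chromosome 17 (chr17:78491582-78493025, plus strand, a single exon in the GENCODE annotation). The 1444 bases of *Gm10093* start at the counterpart of the *Hdac1* start codon and aligned without gaps to the *Hdac1* mRNA with 9 differing bases, an identity of 99.4%. The stretch that holds 7 of these 9 differences is shown because it is where reads of the gene and the pseudogene can best be told apart. Both sequences cover coding positions 331 to 490, counted from the A of the *Hdac1* start codon, and capitals mark the differing bases. The *Hdac1* stretch spans exons 4 and 5 (chr4:129522967-129524270, minus strand, the intron left out), and that of *Gm10093* is chr17:78491912-78492071 on the plus strand.
Hdac1: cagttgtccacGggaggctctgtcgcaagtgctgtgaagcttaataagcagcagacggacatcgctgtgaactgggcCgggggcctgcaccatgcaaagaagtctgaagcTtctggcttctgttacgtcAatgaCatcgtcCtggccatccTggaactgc
Gm10093: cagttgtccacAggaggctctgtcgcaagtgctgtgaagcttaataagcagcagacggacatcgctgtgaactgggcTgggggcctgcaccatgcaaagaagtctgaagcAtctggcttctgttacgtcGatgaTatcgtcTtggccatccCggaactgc

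With the base of *Hdac1* first and that of *Gm10093* last, the differences in this stretch were G342A in exon 4 and C408T, T441A, A460G, C465T, C472T, and T482C in exon 5. The other two were T719C in exon 7 and C1170A in exon 11. The reads were 50 bases long by the study's methods, which may not cover the second experiment. In *Gm10093*, 1121 of the 1395 windows of 50 bases (80.4%) occur letter for letter in the *Hdac1* mRNA. Of the 1989 windows of the *Hdac1* mRNA, 56.4% occur in *Gm10093*. In the files the *Gm10093* row is longer than the annotated transcript, at chr17:78491565-78493541, and the bases beyond the transcript were not compared. A read from such a window matches both places equally well, so the 2 values are uncertain to that extent. The annotated transcripts of AC125456.1 and Gm4864 hold 171 and 156 of the *Hdac1* windows, and these genes are not analysed here. No window of 50 bases was shared between *Hdac1* and *Hdac2*, whose coding sequences were 75.2% identical, and none of the *Hdac2*, *Hdac3*, or *Hdac8* mRNA occurred in the transcripts of another gene.

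*Hdac1* was low but measurable in every mutant library. In the first experiment the 4 WT libraries had 78.8, 79.6, 77.8, and 76.3 FPKM, and the 4 HDAC1cKO-HDAC2HET libraries had 6.99, 10.7, 8.85, and 6.65 FPKM. The groups did not overlap, and the mutant libraries differed among themselves by more than the WT libraries relative to their level. The highest mutant library, replicate 2, had a confidence interval of 9.54 to 11.9 FPKM, above that of replicate 4 at 6.05 to 7.25 FPKM. By these bounds 593.3, 326.6, 226.9, and 489.6 fragments stood behind the values of mutant replicates 1 to 4. Their order was thus not that of the FPKM values, and the source of the spread was not tested. The residual level was 10.6% of WT, with a log2 fold change of -3.24 (SE 0.14, adjusted p = 2.82e-06, limma, Benjamini-Hochberg), or a ratio of 0.106 (95% interval 0.0838 to 0.133). The 2-sided exact permutation test gave p = 0.0286, the smallest that 4 against 4 libraries allow, as it did for each of the 5 genes in this experiment.

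In the second experiment *Hdac1* stood at 72.3, 81.1, and 73.4 FPKM in WT and at 8.52, 12.1, and 9.64 FPKM in HDAC1cKO libraries. Again the groups were far apart, and the residual level was 13.3% of WT (ratio 0.133, 95% interval 0.105 to 0.169, adjusted p = 0.00206, limma). The exact permutation test gave 0.1, the smallest p that 3 against 3 libraries allow. Bulk libraries do not tell apart a small share of cells with full *Hdac1* levels from a low level in all cells. The files give a value for the whole *Hdac1* locus, so they do not show which exons the remaining fragments came from. In the mutant libraries 227 to 593 fragments stood behind the *Hdac1* value by its confidence bounds.

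All 5 genes were called at an adjusted p of at most 0.05 in HDAC1cKO-HDAC2HET, 4 lower and 1 higher, where 51.5% of the 14805 genes tested were called, 27.5% lower and 24.0% higher. With every library shifted to a common median the balance of calls turned, to 3582 lower and 3957 higher, without a change to the members' calls. A call by itself therefore says little in that experiment. With a fold change of at least 2, *Hdac1* and *Gm10093* were called lower, as were 5.51% of all genes. In HDAC1cKO the same 2 members were called, both lower, where 0.0942% of 13806 genes were called, 0.0652% lower and 0.029% higher. Every mutant library was lower than every WT library for 26.9% of genes in the first experiment and 12.3% in the second, and higher for 23.2% and 9.91%.

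**Figure D1:**
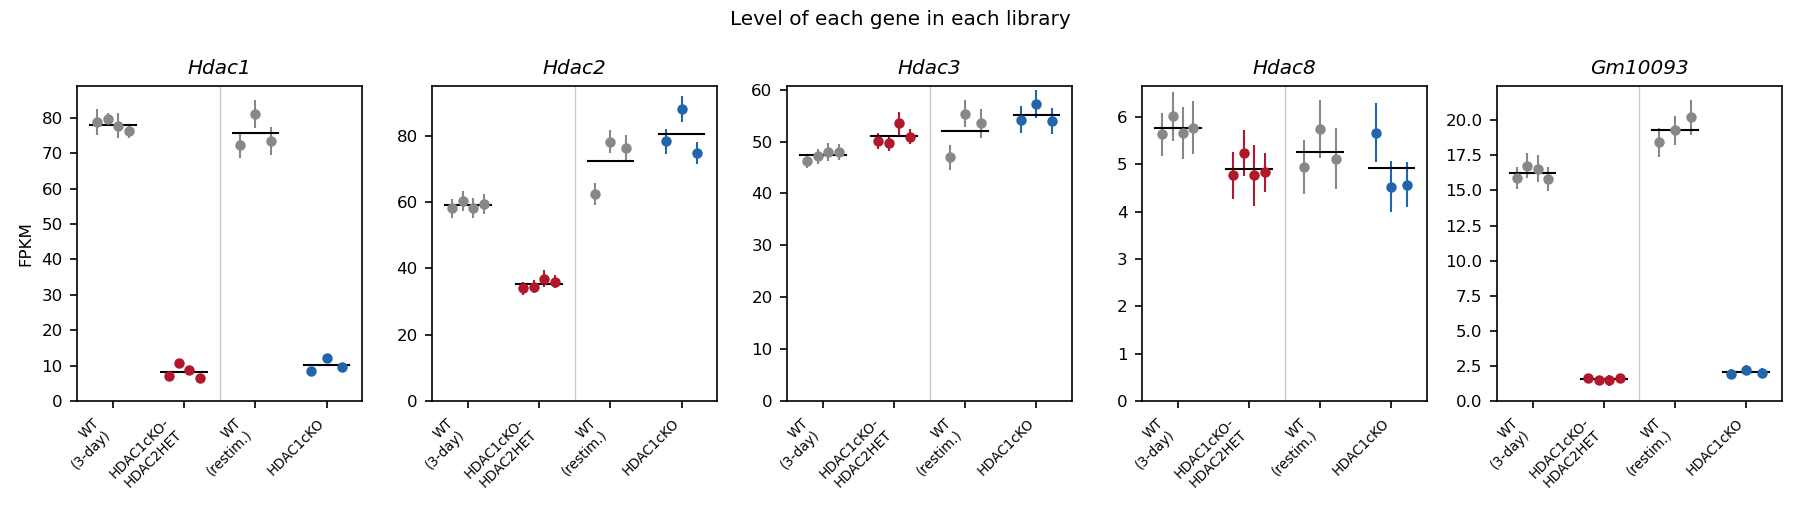
FPKM of each gene in each library (points, with the confidence bounds given in the files) and group means (black lines), for WT and HDAC1cKO-HDAC2HET cells after 3 days and for WT and HDAC1cKO cells after restimulation. *Hdac1* and *Gm10093* are low in all 7 mutant libraries, and *Hdac2* is at 34.0 to 37.0 FPKM in the 4 HDAC1cKO-HDAC2HET libraries and at 58.2 FPKM or more in the other 10.

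*Gm10093* was lower in the mutants by about the same factor as *Hdac1*, although it lies on another chromosome and is no target of the deletion. It had 15.9, 16.8, 16.5, and 15.8 FPKM in WT and 1.67, 1.5004, 1.48, and 1.68 FPKM in HDAC1cKO-HDAC2HET libraries. The mutant level was 9.72% of WT (log2 fold change -3.28, SE 0.06, adjusted p = 1.3e-07, limma), the 3rd smallest p of all genes tested. Restimulated WT libraries had 18.4, 19.3, and 20.2 FPKM and HDAC1cKO libraries 1.96, 2.24, and 2.04 FPKM, or 10.8% of WT (log2 fold change -3.16, SE 0.10, adjusted p = 0.000258). The groups were separate in both experiments, and 61.1 to 178.5 fragments stood behind the *Gm10093* value in mutant libraries.

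Because the 2 sequences share most of their 50-base windows, *Gm10093* was also expressed as a percentage of *Hdac1* in each library. WT libraries had a percentage of 20.8% ± 0.48 and HDAC1cKO-HDAC2HET libraries of 19.9% ± 5.47 (SD, n = 4 each), and the groups overlapped (2-sided exact permutation test, p = 0.771). Replicates 2 and 3 of the mutant, with 13.98% and 16.7%, lay below all WT libraries, and replicates 1 and 4, with 23.9% and 25.3%, above them. Restimulated WT libraries had 25.6% ± 1.86 and HDAC1cKO libraries 20.9% ± 2.22 (SD, n = 3 each), without overlap (exact permutation test, p = 0.1, the smallest possible). The sign of the first difference, -0.87 percentage points, turned to 1.12 without mutant replicate 2 and to 0.22 without mutant replicate 3. With *Hdac1* and *Gm10093* summed to a single feature, the log2 fold change was -3.26 in HDAC1cKO-HDAC2HET and -2.96 in HDAC1cKO. How far reads of *Hdac1* mRNA were assigned to *Gm10093* was not tested.

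**Figure D2:**
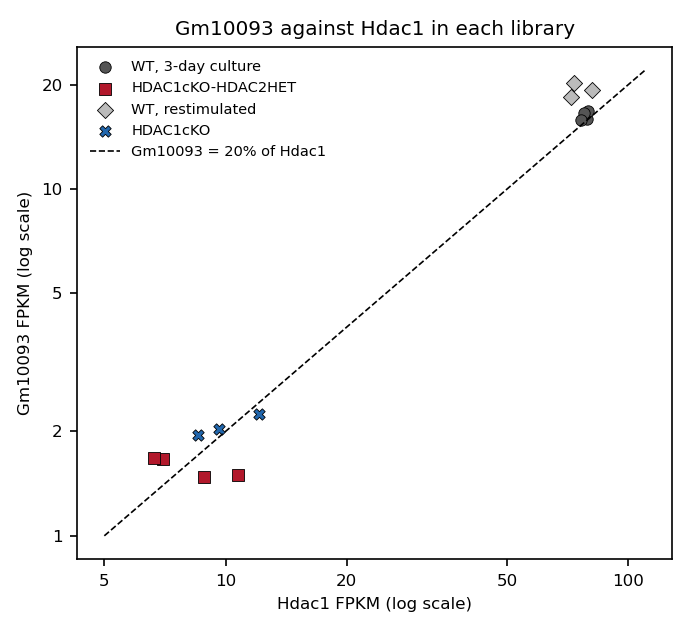
*Gm10093* FPKM against *Hdac1* FPKM in the 14 libraries, on log axes, with a dashed line where *Gm10093* is 20% of *Hdac1*. The 7 WT libraries lie at the upper right and the 7 mutant libraries at the lower left, all at 13.98% to 27.5%.

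*Hdac2*, with a single functional allele left in HDAC1cKO-HDAC2HET cells, stood above 0.5 of its WT level. The WT libraries had 58.2, 60.3, 58.2, and 59.5 FPKM, and the mutant libraries had 34.0, 34.5, 37.0, and 36.0 FPKM. The groups did not overlap, and each varied by little. The log2 fold change was -0.74 (SE 0.03, adjusted p = 2.89e-06, limma; exact permutation p = 0.0286), a ratio of 0.600 with a 95% interval of 0.569 to 0.632. A ratio of 0.5, the share of functional alleles, lay below this interval. The deleted allele's own transcripts cannot be told apart from those of the intact allele in these values.

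In HDAC1cKO cells, which carry 2 intact *Hdac2* alleles, *Hdac2* stood at 78.3, 88.1, and 74.8 FPKM against 62.4, 78.2, and 76.4 FPKM in WT. The groups overlapped, with WT replicate 1 the lowest library and HDAC1cKO replicate 2 the highest. The ratio of 1.11 had a 95% interval of 0.916 to 1.35 (adjusted p = 0.584, limma; exact permutation p = 0.4), an interval that holds both a slight fall and a rise of up to 1.35-fold. Leaving out each library moved the log2 fold change of 0.16 to between 0.05 and 0.22, with 0.05 without WT replicate 1 and 0.09 without HDAC1cKO replicate 2. *Xist*, the transcript of the inactive X chromosome, was above 1 FPKM in WT replicates 1 and 3 and below it in the other 4 libraries of this experiment. With *Xist* status as a covariate the log2 fold change of *Hdac2* was 0.04, but WT replicate 2 is then the only WT library set against the 3 HDAC1cKO libraries, so this value rests on a single WT library.

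The fold changes of *Hdac2* differed between the experiments by -0.89 on the log2 scale (SE 0.11, 95% interval -1.13 to -0.66, adjusted p = 0.000334, limma contrast over 14 libraries), where 15.6% of 12017 genes were called. For the other members this difference did not pass the test. It was -0.34 for *Hdac1* (95% interval -0.80 to 0.13), -0.13 for *Gm10093* (-0.35 to 0.09), 0.02 for *Hdac3* (-0.15 to 0.19), and -0.13 for *Hdac8* (-0.40 to 0.14). Genotype, culture, and processing date changed together between the experiments and cannot be told apart in these differences. Libraries of the first experiment listed 36661 to 38521 named rows and those of the second 24351 to 25115. *Xist* was at 26.0 FPKM or more in every library of the first experiment. In the second it was above 1 FPKM in WT replicates 1 and 3 only.

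**Figure D3:**
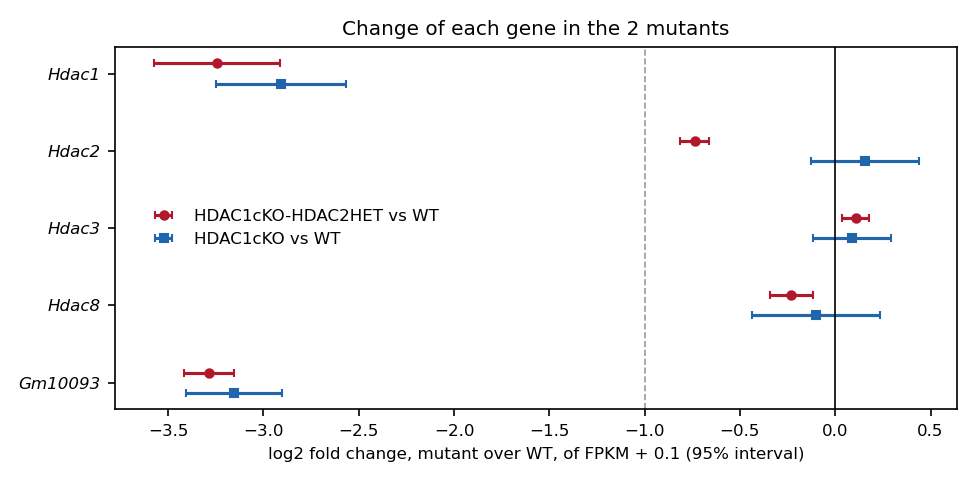
Log2 fold change of FPKM + 0.1, mutant over WT, with 95% intervals from limma, for HDAC1cKO-HDAC2HET (circles, 4 against 4 libraries) and HDAC1cKO (squares, 3 against 3). The solid line marks no change and the dashed line -1, a halving. For *Hdac2* only the HDAC1cKO-HDAC2HET interval lies below 0, at -0.81 to -0.66.

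*Hdac3* and *Hdac8*, whose genes were not targeted, differed from WT by far less than *Hdac1* and *Hdac2* in HDAC1cKO-HDAC2HET. *Hdac3*, the next most abundant member, had 46.3, 47.1, 48.0, and 48.0 FPKM in WT and 50.05, 49.7, 53.5, and 51.0 FPKM in HDAC1cKO-HDAC2HET libraries. The mutant libraries were all higher, but the gap was small, a ratio of 1.08 (95% interval 1.03 to 1.13, adjusted p = 0.0192, limma), and such a separation was found for 23.2% of all genes. Without WT replicate 1 the adjusted p was 0.0525, and the call was also lost without a variance trend (0.0504) and in a fit of all 14 libraries (0.0976). In the second experiment *Hdac3* was at 46.9, 55.4, and 53.6 FPKM in WT and 54.2, 57.3, and 54.0 FPKM in HDAC1cKO libraries, which overlapped (ratio 1.06, 95% interval 0.923 to 1.23, adjusted p = 0.652). The log2 fold change of 0.09 ranged from 0.02 to 0.14 leaving out each library, with 0.02 without WT replicate 1, and was -0.0069 with *Xist* status as a covariate, which again rests on WT replicate 2 alone.

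*Hdac8*, the least abundant of the 4 enzymes, had 5.63, 6.01, 5.65, and 5.77 FPKM in WT and 4.77, 5.24, 4.77, and 4.83 FPKM in HDAC1cKO-HDAC2HET libraries. All mutant libraries were lower, by a ratio of 0.852 (95% interval 0.788 to 0.921, adjusted p = 0.00468, limma), as was the case for 26.9% of all genes. *Hdac8* lies on the X chromosome, and *Xist* was also lower in these mutant libraries, at 26.0 to 33.7 FPKM against 58.9 to 65.2 FPKM in WT, though its confidence bounds in the files were very wide. Its part in the *Hdac8* value was not tested. With restimulation *Hdac8* was at 4.94, 5.75, and 5.12 FPKM in WT and 5.67, 4.53, and 4.57 FPKM in HDAC1cKO libraries (ratio 0.933, 95% interval 0.739 to 1.18, adjusted p = 0.761). Leaving out each library gave log2 fold changes of -0.20 (without HDAC1cKO replicate 1) to -0.04 (without WT replicate 2), beside -0.10 with all. With *Xist* status as a covariate the log2 fold change in HDAC1cKO was -0.23, a value that again rests on WT replicate 2 alone. The restimulated groups overlapped, and neither interval of *Hdac8* included a rise of more than 1.18-fold.

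The rank order of the enzymes by FPKM differed between the genotypes. In WT cells of the first experiment the order was *Hdac1*, *Hdac2*, *Hdac3*, and *Hdac8*, at 78.1 ± 1.44, 59.0 ± 1.04, 47.4 ± 0.815, and 5.77 ± 0.173 FPKM (SD, n = 4), and no neighbours overlapped. In HDAC1cKO-HDAC2HET cells *Hdac3* stood first at 51.0 ± 1.73 FPKM, followed by *Hdac2* at 35.4 ± 1.36, *Hdac1* at 8.30 ± 1.89, and *Hdac8* at 4.90 ± 0.230 FPKM (SD, n = 4). In restimulated WT cells *Hdac1* at 75.6 ± 4.78 and *Hdac2* at 72.4 ± 8.65 FPKM (SD, n = 3) overlapped and could not be ranked. In HDAC1cKO cells *Hdac2* led with 80.4 ± 6.91 FPKM, ahead of *Hdac3* with 55.1 ± 1.86 and *Hdac1* with 10.1 ± 1.82 FPKM (SD, n = 3).

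The summed FPKM of *Hdac1* and *Hdac2*, the pair that shares complexes, was 137.2 ± 1.90 in WT and 43.7 ± 2.24 in HDAC1cKO-HDAC2HET libraries (SD, n = 4), or 31.9% of WT (2-sided exact permutation test, p = 0.0286, the smallest possible). With restimulation it was 147.9 ± 12.4 in WT and 90.5 ± 8.51 in HDAC1cKO libraries (SD, n = 3), or 61.2% of WT (exact permutation test, p = 0.1, the smallest possible). The sum over all 4 enzymes was 190.3 ± 1.86 and 99.6 ± 3.46 FPKM (SD, n = 4) in the first experiment, 52.4% of WT, and 205.2 ± 17.2 and 150.5 ± 10.1 FPKM (SD, n = 3) in the second, 73.4% of WT. These sums are of transcripts and not of protein or of enzyme activity.

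Shares of the class I sum moved accordingly. *Hdac1* made up 41.0% ± 0.617 of the sum in WT and 8.32% ± 1.76 in HDAC1cKO-HDAC2HET libraries (SD, n = 4), and *Hdac3* made up 24.9% ± 0.496 and 51.2% ± 1.15. The *Hdac2* share differed much less in this experiment, at 31.0% ± 0.336 and 35.5% ± 0.874. Among the restimulated libraries the *Hdac2* share was 35.2% ± 1.62 in WT and 53.4% ± 1.04 in HDAC1cKO libraries (SD, n = 3), and the *Hdac3* share 25.3% ± 0.311 and 36.7% ± 1.22. *Hdac1* made up 56.9% of the *Hdac1* and *Hdac2* transcripts in WT and 18.9% in HDAC1cKO-HDAC2HET libraries, and 51.2% and 11.1% in the second experiment.

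**Figure D4:**
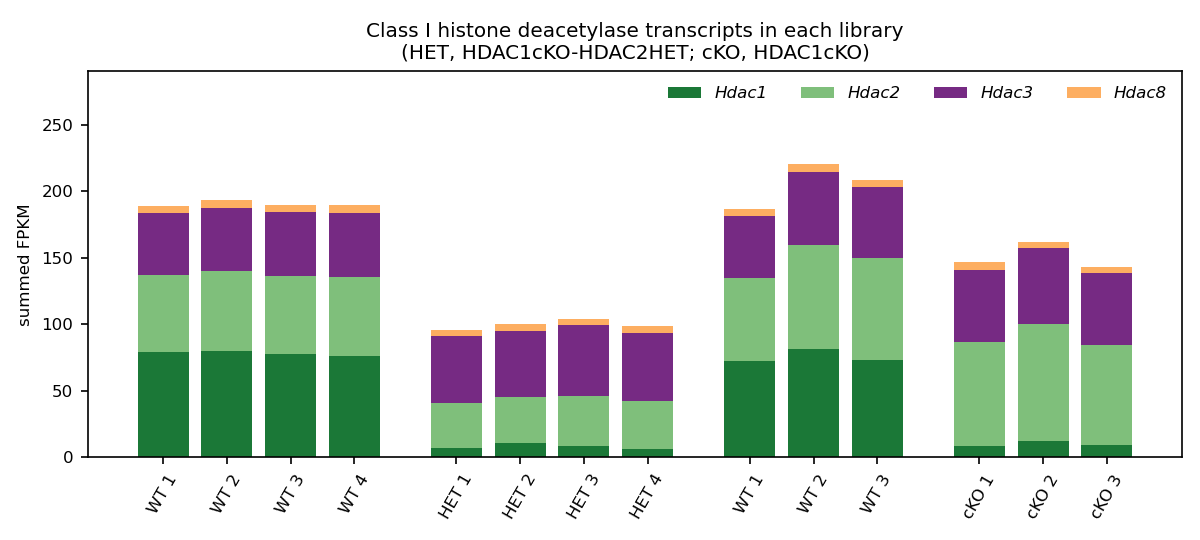
Summed FPKM of *Hdac1*, *Hdac2*, *Hdac3*, and *Hdac8* in each library, stacked by gene from 0. The HDAC1cKO-HDAC2HET bars reach a mean of 99.6 against 190.3 in their WT libraries, and the HDAC1cKO bars 150.5 against 205.2, while the *Hdac3* segments are of like height throughout, at 46.3 to 57.3 FPKM.

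The mutant libraries also listed short loci inside the *Hdac1* span that matched no annotated gene or transcript. There were 6, 4, 1, and 5 such loci in the HDAC1cKO-HDAC2HET libraries and 5, 0, and 4 in the HDAC1cKO libraries, and 0 in all 7 WT libraries. Of these 25 loci, 21 lay in intron 3, 2 in intron 5, and 2 in intron 6. None touched an exon of the *Hdac1* transcript whose sequence was used above, and exons of other transcripts were not checked. They were 104 to 844 bases long with 9.6 to 47.5 fragments each by their confidence bounds. Their FPKM ranged from 1.28 to 72.1, and the highest value belonged to the shortest locus. No such locus was listed inside *Hdac2*, *Hdac3*, or *Hdac8* in any library. Across protein-coding genes that average 0.1 FPKM or more, 0.121% of 10747 had such loci in all 4 HDAC1cKO-HDAC2HET libraries and in no WT library. In the second experiment 1.35% of 10965 had them in at least 2 HDAC1cKO libraries and in no WT library. The reverse, such loci in as many WT libraries and in no mutant library, held for 0.577% and 0.83%. Intronic reads of WT libraries may be part of the assembled *Hdac1* locus and then are not listed apart, and this was not tested.

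**Figure D5:**
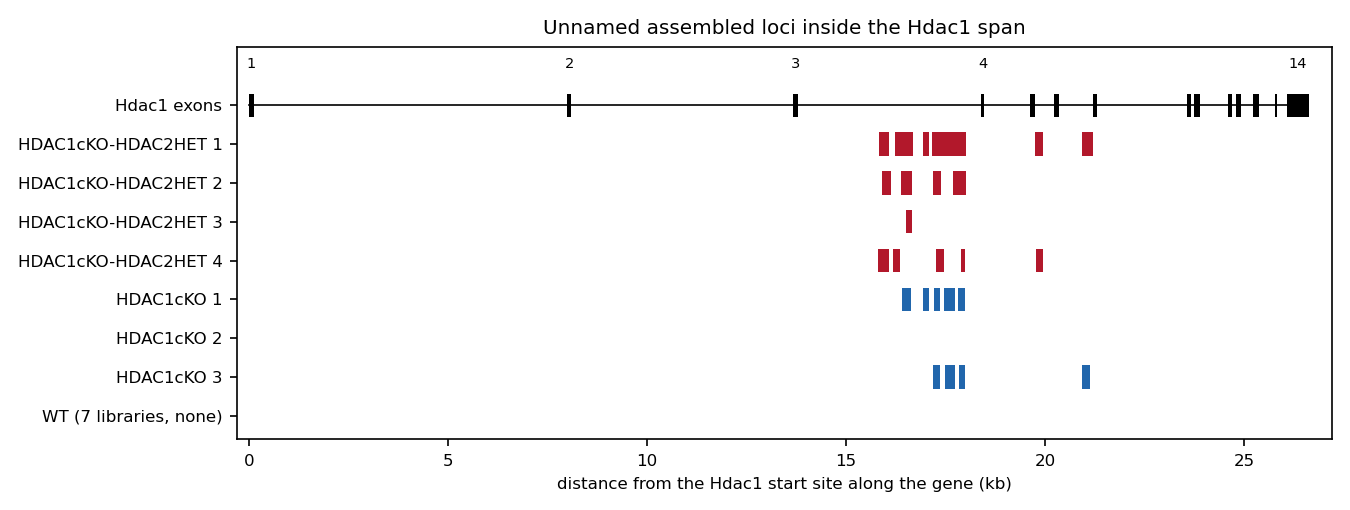
Unnamed assembled loci inside *Hdac1* in each mutant library, by distance from the start site in kilobases, below the annotated exons (black, numbered in part). Most loci lie between exons 3 and 4, HDAC1cKO replicate 2 has none, and the 7 WT libraries have none.

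The genes that work with these enzymes were counted by complex, from lists chosen with earlier results of these data known. The totals given next also include the list of class II and IV deacetylases, which are not partners of these enzymes by that count. In HDAC1cKO-HDAC2HET, 17 of 59 tested genes were higher and 22 lower, beside 24.0% and 27.5% over all genes, and 3 changed at least 2-fold. In HDAC1cKO, 0 of 57 passed the test (limma), with 10 of the 57 at an unadjusted p under 0.05, and 13 of all 13806 genes passed, with 1953 of them at an unadjusted p under 0.05.

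Among the complexes built on HDAC1 and HDAC2, the NuRD list had 6 of 10 genes higher and 1 lower in HDAC1cKO-HDAC2HET (median log2 fold change 0.23, beside -0.045 over all genes). *Gatad2a*, a scaffold subunit, rose from 32.8 to 60.5 FPKM (adjusted p = 2.13e-06), and *Chd4*, the main remodelling ATPase, from 117.9 to 164.3 FPKM (adjusted p = 6.66e-05). *Chd3*, the alternative ATPase, fell from 36.4 to 15.5 FPKM (adjusted p = 1.68e-06, limma for all 3).

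The Sin3 list had 6 of 15 genes higher and 4 lower, with a median log2 fold change of 0.08. *Brms1* rose from 30.8 to 44.2 FPKM and its paralog *Brms1l* fell from 6.24 to 3.74 FPKM (adjusted p = 1.99e-05 and 3.6e-05, limma), and *Sap130* rose from 18.0 to 24.2 FPKM (adjusted p = 3.42e-05).

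The CoREST list had 2 of 9 genes higher and 3 lower. *Rcor2*, a paralog of the CoREST scaffold *Rcor1*, rose from 0.446 to 5.13 FPKM (log2 fold change 3.30, SE 0.21, adjusted p = 1.1e-05, limma). *Phf21a* fell from 11.5 to 7.66 FPKM (adjusted p = 0.000241, limma). In HDAC1cKO, *Rcor2* had 0.698 FPKM in WT and 2.76 FPKM in the mutant without passing the test (log2 fold change 1.69, adjusted p = 0.236).

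Of the MiDAC list, *Elmsan1* rose from 6.13 to 8.53 FPKM and *Dnttip1* fell from 26.1 to 21.9 FPKM in HDAC1cKO-HDAC2HET (adjusted p = 4.82e-05 and 0.0138, limma).

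Around HDAC3, 1 of 5 genes of the NCoR/SMRT list was higher and 2 were lower. *Tbl1xr1* and its paralog *Tbl1x*, which bridge the corepressor to histones, fell from 9.94 to 4.76 and from 42.5 to 28.5 FPKM (adjusted p = 2.9e-05 and 5.63e-06, limma). In HDAC1cKO *Tbl1xr1* had 11.6 FPKM in WT and 6.77 in the mutant (adjusted p = 0.139).

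Of the cohesin list, which holds the HDAC8 substrate *Smc3*, 8 of 11 genes were lower and 1 higher in HDAC1cKO-HDAC2HET (median log2 fold change -0.22), with none past 2-fold. The gene that was higher was *Smc3* itself, at 43.5 FPKM in WT and 47.9 FPKM in the mutant (log2 fold change 0.14, adjusted p = 0.00993, limma). *Nipbl*, the cohesin loader, fell from 19.7 to 13.5 FPKM, *Stag1* from 18.7 to 12.2 FPKM, and *Esco2*, an acetyltransferase of SMC3, from 19.8 to 14.9 FPKM (adjusted p = 5.41e-05, 7.93e-05, and 0.00021, limma).

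Of the class II and IV deacetylases, 3 of 6 tested genes were lower and 0 higher in HDAC1cKO-HDAC2HET. *Hdac7*, the most abundant of them and a class IIa enzyme of thymocytes and T cells, fell from 160.7 to 88.7 FPKM, *Hdac4* from 6.04 to 3.98 FPKM, and *Hdac10* from 14.1 to 8.69 FPKM (adjusted p = 7.83e-05, 0.000191, and 0.00145, limma). In HDAC1cKO *Hdac7* had 147.2 FPKM in WT and 100.02 in the mutant (adjusted p = 0.374).

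Genes next to *Hdac1*, *Hdac2*, and *Gm10093* were counted within 250 kb. Near *Hdac1*, 2 of 11 tested genes were higher and 2 lower in HDAC1cKO-HDAC2HET, beside 24.0% and 27.5% of all genes, and none changed 2-fold. *Lck*, the T cell receptor proximal kinase, lies 5.63 kb beyond the *Hdac1* start site and fell from 284.9 to 220.1 FPKM (log2 fold change -0.37, adjusted p = 2.67e-05, limma). *Eif3i* rose from 234.3 to 296.6 FPKM and *Tmem234* from 54.3 to 65.3 FPKM (adjusted p = 9.82e-05 and 0.00392). On the other side, *Marcksl1*, 0.119 kb from the end of *Hdac1*, *Bsdc1*, and *Zbtb8a* did not pass the test, with log2 fold changes of -0.10, 0.01, and 0.37. In HDAC1cKO none of 13 genes passed in limma (1 at an unadjusted p under 0.05), and *Lck* had 242.9 FPKM in WT and 263.2 in the mutant.

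*Marcks*, 131 kb from *Hdac2* and the only tested gene within 250 kb of it, fell from 1.87 to 0.515 FPKM in HDAC1cKO-HDAC2HET (log2 fold change -1.68, SE 0.15, adjusted p = 6.36e-05, limma). In HDAC1cKO, where *Hdac2* is not targeted, *Marcks* had 7.91 FPKM in WT and 3.63 in the mutant (log2 fold change -1.10, SE 0.13, adjusted p = 0.0703). Near *Gm10093*, *Fez2* at 73.4 kb and *Crim1* at 115 kb rose in HDAC1cKO-HDAC2HET, from 3.02 to 7.24 and from 6.31 to 11.7 FPKM (adjusted p = 1.08e-05 and 4.01e-05, limma), the opposite direction to *Gm10093*, and *Strn* did not pass the test (log2 fold change -0.10).

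The labelled cell type was checked against markers. The 6 T cell markers (*Cd3d*, *Cd3e*, *Cd3g*, *Cd2*, *Thy1*, *Lck*) summed to at least 1010 FPKM in every library, and B cell, myeloid, NK, and erythroid markers to at most 1.12 FPKM. Of the 4 myeloid markers *Csf1r* had no value, and *Ncr1* was the only NK marker. The B cell markers summed to 0.512 to 1.12 FPKM in HDAC1cKO-HDAC2HET and to 0.214 to 0.576 FPKM in its WT libraries. Single T cell markers did differ in HDAC1cKO-HDAC2HET, with *Thy1* and *Cd2* higher and the other 4 lower (limma). Over all genes 24.0% were higher and 27.5% lower. *Cd4* fell from 212.9 to 163.9 FPKM, *Cd40lg* from 119.9 to 58.2 FPKM, while *Cd8b1* rose from 4.71 to 12.8 FPKM and *Cd8a* from 0.0581 to 0.439 FPKM in HDAC1cKO-HDAC2HET (adjusted p at most 0.000587, limma). The summed CD8 markers ranged from 3.28 to 5.96 FPKM in WT and from 11.7 to 15.2 FPKM in HDAC1cKO-HDAC2HET. In the second experiment the sums were 3.8 to 4.86 FPKM in WT and 6.52 to 7.3 FPKM in HDAC1cKO. Neither gene passed the test there (adjusted p = 0.184 for *Cd8b1* and 0.221 for *Cd8a*, limma). The part of the CD8 markers in the values above was not tested.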

How the data were processed

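The FPKM values and confidence bounds deposited by the authors for each library are in the form that Cufflinks gives, already scaled to depth and transcript length. The study's methods name TopHat as the aligner to mm10, whereas the submitters' processing notes name STAR 2.5.2b, Subread 1.5.1, and edgeR for all libraries. The aligner behind these columns is therefore uncertain, above all for the second experiment, and with it how reads common to *Hdac1* and *Gm10093* were placed. No counts were used here. Loci without a name were matched by position to GENCODE genes of GRCm38, a gene matched to a locus at 0 in any library was left out (3363 and 3204 genes), and a locus start was counted from 1. Fragments behind a value were estimated from its confidence bounds, which widen where isoforms share reads, and cover counting error only.

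The fits used limma (version 3.58.1, under R 4.3.3), separately for each experiment, with log2(FPKM + 0.1) as the response and a variance trend. Genes averaging 0.1 FPKM or more entered, and a gene was called at a Benjamini-Hochberg adjusted p of at most 0.05. Fold changes from these fits are on the log2(FPKM + 0.1) scale and understate changes of low genes. Exact permutation tests ran over 70 or 20 arrangements. Separate mice behind the replicate numbers are given by the study's methods for the first experiment only, so p-values measure the spread between these samples. Alternatives changed the pseudocount, filter, scaling, variance model, locus matching, replicate block, sex covariate, and each library in turn. The fit was also run on simulated data with independent noise for each gene, a setting that does not cover reads shared between genes. The members, lists, and rule for named genes (the members, up to 3 called genes with the smallest adjusted p a list, the 3 nearest tested genes on each side of *Hdac1*, *Hdac2*, and *Gm10093*, and the 3 most alike genes a member) were chosen with earlier results of these data known. A few genes that this rule names are counted with their lists but not reported by name. The loci inside *Hdac1*, the named genes that missed the threshold in HDAC1cKO, and the marker genes were picked after values were seen. Figures were drawn with matplotlib 3.10.9.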

Additional observations from a re-analysis of the deposited data

Results flagged for a closer look

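The difference between the experiments in the log2 fold change of *Hdac2*, -0.89, passed the test over all genes, as described above. Unnamed loci inside *Hdac1* were listed in data that no comparison used, 16 over the 4 HDAC1cKO-HDAC2HET libraries and 9 over the 3 HDAC1cKO libraries, with 0 in the WT libraries. *Hdac8* in HDAC1cKO-HDAC2HET replicate 2 stood apart from the other 3 libraries at 5.24 FPKM. The class I sum of WT replicate 2 in the first experiment stood apart at 193.0 FPKM. These were 2 of 26 groups of 4 libraries tested for a lone value, and chance flags about 1 in 20 such groups. The quantities tested overlap, so the 26 are not independent.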

How the results depend on the processing

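*Hdac1* and *Gm10093* kept their direction and their side of the threshold under every alternative that gave a value in both experiments, with log2 fold changes of -3.38 to -2.80 for *Hdac1* and -3.36 to -2.72 for *Gm10093*. So did *Hdac2* and *Hdac8* in HDAC1cKO-HDAC2HET (-0.76 to -0.69 and -0.26 to -0.18) and the difference in *Hdac2* (-0.95 to -0.79). The rise of *Hdac3* in HDAC1cKO-HDAC2HET was 0.11 in the main fit and 0.16 with the median shift (adjusted p = 0.00283, limma). It missed the threshold without a variance trend (adjusted p = 0.0504), with all 14 samples in 1 fit (0.0976), and without WT replicate 1 (0.0525). Leaving out each library gave 0.084 to 0.12. The *Hdac3* value in HDAC1cKO turned to -0.0069 with the sex covariate, where WT replicate 2 alone stands against the 3 mutant libraries. Leaving out each library, the difference in *Hdac3* ranged from -0.029 (without WT replicate 2 of the HDAC1cKO experiment) to 0.090. It was -0.0049 without WT replicate 3 of that experiment, -0.0041 without HDAC1cKO-HDAC2HET replicate 3, and 0.046 without HDAC1cKO replicate 2. *Gm10093* as a percentage of *Hdac1* in HDAC1cKO-HDAC2HET minus WT ranged from -2.64 to 1.12 points. The cause was not tested. The 4 enzymes were not named in every library, so named rows only gave no value for them.

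Genes called in HDAC1cKO-HDAC2HET dropped from 3551 higher and 4069 lower to 476 and 548 with rows with a gene name only, where fewer genes were tested. In HDAC1cKO, 4 genes were called higher and 9 lower. The higher count was 7 with a pseudocount of 0.01, 1 with no filter, 8 at a mean FPKM of at least 1, 9 with the median shift, 0 without a variance trend, 2 at shared bases of at least 0.5, 1 with named rows only, and 2 to 24 leaving out each library, with 9 to 31 lower. With all 14 samples in 1 fit 617 were higher and 686 lower, and with the sex covariate 29 and 47. With the replicate number as a block, 0 were called higher and 5 lower in HDAC1cKO and 3227 and 3678 in HDAC1cKO-HDAC2HET, and no member's call changed. Same-numbered deviations from the group means correlated at -0.016 to 0.062, which does not settle whether the samples were paired. Depth and group size were not varied, and the fewest fragments stood behind *Gm10093* in the mutants.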

Other observations

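For each member, the protein-coding genes with the most similar pattern were listed by Pearson's r over the 14 libraries, with log2(FPKM + 0.1) centred on the WT mean of the experiment. These values are descriptions, since the libraries fall into WT and mutant groups that set most of r. Among 8480 genes, those most like *Hdac1* included *Klc4* (r = 0.968) and *Mgst3* (0.965). Those most like *Gm10093* included *Hdac1* itself (r = 0.991) and *Mex3b* (0.971). *Hdac2* was most like 1700017B05Rik (r = 0.982), *Blvra* (0.977), and *Tex264* (0.976). *Hdac3* was most like *Otub1* (r = 0.938), *Cdk2* (0.934), and *Trmt44* (0.927), and *Hdac8* was most like *Ikzf1* (r = 0.936), *Shcbp1* (0.928), and *Bcl2l11* (0.926).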
